A study of Oryza sativa with 6 samples.

Results

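The regions described here are the stretches of acetylated chromatin in the last 2 Mb of rice chromosomes 1 to 10 and 12, at the high-coordinate end of each. Deposited peak lists of 6 libraries were merged wherever intervals overlapped by 1 bp, the largest peak coordinate on a chromosome in any list was taken as its end, and a merged region belonged to the terminal set when its midpoint lay within 2 Mb of that end. This gave 1531 regions of 17468 on the 12 nuclear chromosomes, or 8.76%, in 22 Mb of sequence. They were compared with the interior of the same 11 chromosomes, which leaves out the first and last 2 Mb and held 13734 regions in 300 Mb. The ends come from the outermost call and not from the assembly, so each chromosome has a region at its end by construction.

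The mark is acetylation of lysine 9 on histone H3 (H3K9ac). It was mapped in leaf nuclei of rice (Oryza sativa) seedlings 20 days old by CUT&Tag, in which an antibody brings a transposase to the mark and the transposase cuts and tags the DNA there. Control seedlings carried no insects, and the other groups bore Spodoptera frugiperda, a moth whose larva is known as the fall armyworm, for 3 h or for 12 h. Each group had 2 libraries. The labels give no cultivar, no genotype, and no statement that replicates were separate plants, so agreement or spread among libraries may be technical. A p-value for terminal against other windows reflects mainly whether the 6 libraries share a direction, and all rest on the same chromosome ends. A p-value between groups reflects how far their libraries differ. The series describes whole seedlings while the sample labels say leaf.

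H3K9ac sits mainly over the start of transcribed genes, where acetylation loosens the contact of the histone tail with DNA and recruits proteins that promote transcription. In rice, as in other grasses, genes are crowded toward the distal parts of chromosome arms, and the regions around centromeres are rich in transposons and heterochromatin. The short arms of chromosomes 4 and 10 are known to be largely heterochromatic. The reference given did not match the build of the files, so no region was assigned to a gene and no sequence is shown. Coordinates refer to IRGSP-1.0 and are 1-based.

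The libraries differed in list length, which bears on every count below. Control lists held 4671 and 5174 nuclear regions, those of 3 h held 10460 and 12234, and those of 12 h held 11318 and 11029. Sequencing totals were not analysed here. The depth at peaks was recovered from the deposited fold and −log10 p, with median summit coverage between 13 and 17 fragments per list. A missing call means only that no peak there was listed for that library, not that the mark was absent.

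Called regions were denser in the terminal windows than in the interior in every library. Control replicates 1 and 2 called 425 and 476 terminal regions, the 3 h replicates 881 and 1024, and the 12 h replicates 1021 and 950. Per Mb, this was 20.5 ± 1.64 in control, 43.3 ± 4.60 in the 3 h group and 44.8 ± 2.28 in the 12 h group (SD, n = 2 each). The interior had 12.4 ± 0.898, 29.0 ± 3.25 and 28.7 ± 0.212 regions per Mb in the same order.

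The ratio of terminal to interior density was 1.65 and 1.66 in control, 1.5 and 1.49 in the 3 h lists, and 1.61 and 1.51 in the 12 h lists. No library came near a ratio of 1, and the mean log2 ratio was 0.65 ± 0.07 (SD, n = 6), a ratio of 1.57. Flipping the sign of the 6 log2 ratios in every way gave an exact permutation p of 0.0312, two-sided and the smallest that 6 libraries allow (adjusted p = 0.0375 over 6 tests). Leaving out any 1 library kept the mean between 0.63 and 0.66 but raised the smallest possible p to 0.0625.

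The rise toward the end was also present within the arm. The 2 Mb next to the terminal window, from 2 to 4 Mb before the end, held 17.0 ± 1.35 regions per Mb in control, 38.4 ± 4.95 in the 3 h group and 38.1 ± 0.0964 in the 12 h group (SD, n = 2 each). Terminal density exceeded it in 6 of 6 libraries, by 1.17 times on average (mean log2 0.23 ± 0.05, SD, n = 6; exact permutation p = 0.0312, adjusted p = 0.0375). In each group the neighbouring 2 Mb were themselves denser than the interior. The mean log2 excess over the neighbouring window was 0.12 when the last 500 kb were left out and 0.14 with windows of 3 Mb. Against the first 2 Mb of the same chromosomes the terminal density was 1.28 times as high, again in 6 of 6 libraries (mean log2 0.35 ± 0.06, SD, n = 6; exact permutation p = 0.0312, adjusted p = 0.0375). As a median over the 11 chromosomes this excess was 0.21.

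**Figure D1:**
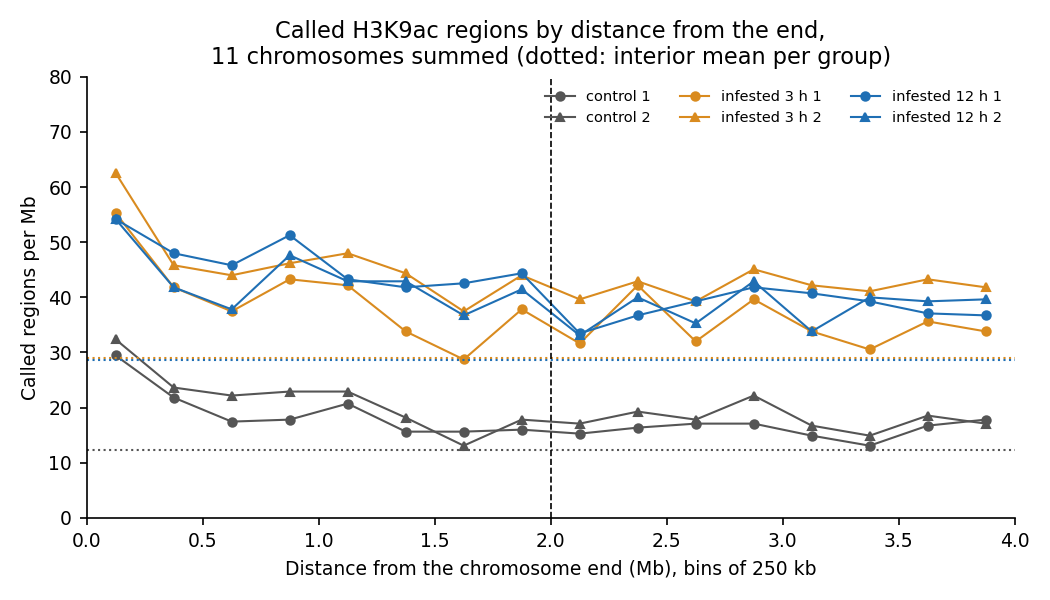
Called regions per Mb (y axis) by distance from the chromosome end in bins of 250 kb (x axis), with the 11 chromosomes summed and 1 line per library; dotted lines are the interior means per group and the dashed line marks 2 Mb. Every line is highest in the bin next to the end, at 30.9 regions per Mb on average in control and 56.5 in infested libraries, and lies above its group's interior level over most of the 4 Mb.

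Counted as merged regions, terminal windows resembled each other more than chromosome interiors did. The number of members ran from 123 on chromosome 12 to 158 on chromosome 3, with a median of 137. As merged regions per Mb this was a span of 61.5 to 79.0, a coefficient of variation of 8.41% over the 11 chromosomes, against 31.5 to 58.7 and 18.1% in the interiors. Chromosome 12 had the sparsest interior as well as the sparsest terminal window. Within the control lists the terminal windows were not more alike than the interiors. Control replicate 1 ran from 14 to 25.5 called regions per Mb in the terminal windows and from 8.84 to 15.4 in the interiors. Control replicate 2 ran from 15 to 30.5 and from 9.82 to 16.4. No test of a difference in spread was made.

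All 66 pairs of a chromosome and a library had a ratio above 1. The lowest mean ratio was on chromosome 1, at 1.22 over the 6 libraries, where control replicate 1 had 1.01 and both control replicate 2 and 12 h replicate 1 had 1.39. Its terminal window ranked 5 among the 21 full windows of 2 Mb counted back from its end, and the densest lay 12 Mb from the end. Chromosome 3, the densest interior, had a mean ratio of 1.34 and rank 4 of 18.

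The highest mean ratios were on chromosomes 10 and 4, at 1.96 and 1.95. On chromosome 10 the 6 libraries ran from 1.87 to 2.03, and on chromosome 4 from 1.77 to 2.16. The terminal window was the densest of its chromosome on 6 of the 11 chromosomes (2, 4, 5, 6, 10 and 12) and among the 3 densest on 9.

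**Figure D2:**
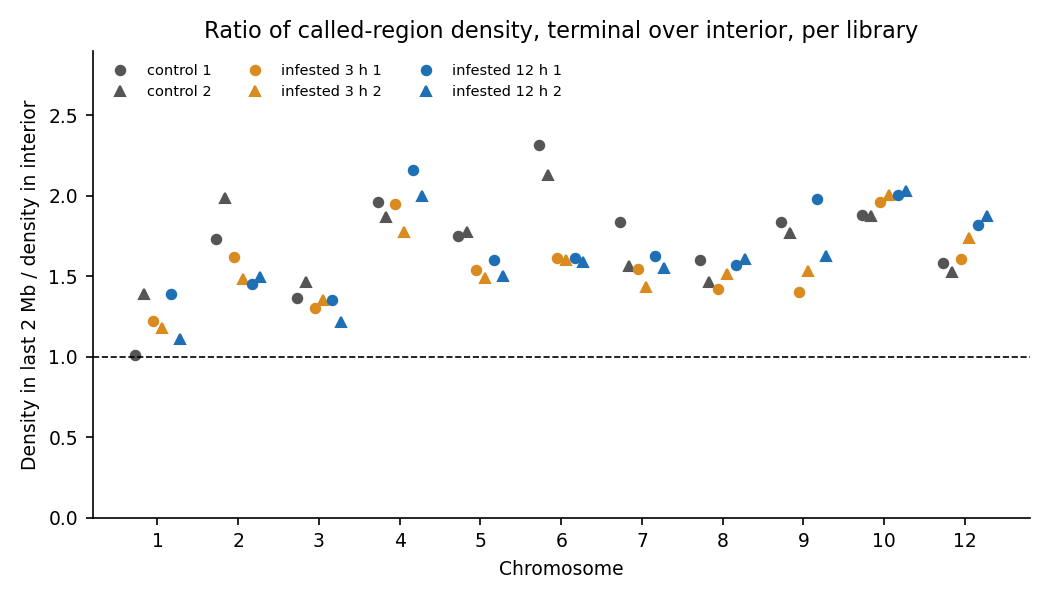
Ratio of called-region density in the last 2 Mb to that in the interior (y axis) for each of the 11 chromosomes (x axis), with 1 point per library and a dashed line at a ratio of 1. Chromosome 1 lies lowest with a mean of 1.22, chromosomes 4 and 10 lie near 1.95, and the control points on chromosome 6, at 2.32 and 2.13, stand above its infested points.

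Members were more closely packed than interior regions, while their median merged width was nearly the same. The median gap between neighbouring members was 9.44 kb, with quartiles of 5.35 and 16.6 kb, against 12.0 kb (6.27 and 24.8 kb) in the interior. The longest terminal gap was 110 kb, on chromosome 1 from 41383762 to 41493480, while the interior reached 608 kb. Merged members had a median width of 723 bp, from 323 to 2909 bp, and covered 5.65% of the terminal bases, against 718 bp and 3.60% of the interior.

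Called width per library differed little. It was 604 ± 29.7 bp in control, 602 ± 5.66 bp in the 3 h group and 647 ± 34.3 bp in the 12 h group (medians per list, SD, n = 2 each), against 589, 600 and 642 bp in the interior. The mean log2 ratio was 0.02 ± 0.02 (SD, n = 6), positive in 5 libraries (exact permutation p = 0.0938, adjusted p = 0.0938). The threshold was passed with stricter peaks, with lists of equal length, with calls asked to cover 50% of the region and with a window of 1 Mb. Regions with several summits made up 12.6 to 17.5% of terminal calls per list and 8.97 to 14.9% of interior calls. The terminal share was the larger in 6 of 6 libraries, by 2.71 ± 1.1 percentage points (SD, n = 6; exact permutation p = 0.0312), with an adjusted p of 0.0625 over 12 tests chosen after the data were seen. Group means of this share (control, 3 h, 12 h) were 13.4, 16.6 and 13.2% there and 10.1, 15.3 and 12.8% in the neighbouring 2 Mb.

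Terminal regions had slightly lower fold enrichment than interior regions, and so did the neighbouring and first 2 Mb in each group mean. The fold is the authors' value for the height of a summit over the local background of its own library. Its median over terminal regions was 3.54 and 3.73 in control, 3.7 and 3.56 in the 3 h lists, and 3.94 and 4.0 in the 12 h lists. Interior medians were 3.68 and 3.82 in control, 3.84 and 3.74 in the 3 h lists, and 4.09 and 4.12 in the 12 h lists. The terminal median was the lower one in 6 of 6 libraries, with a mean log2 ratio of −0.05 ± 0.01 (SD, n = 6), or 0.965 times (exact permutation p = 0.0312, adjusted p = 0.0375). Group means of the median fold were 3.64, 3.63 and 3.97 at the terminal regions (control, 3 h, 12 h), close to 3.73, 3.69 and 3.99 in the neighbouring 2 Mb and 3.64, 3.68 and 4.01 in the first 2 Mb.

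Strong summits made up a smaller share of the terminal calls in each list, a difference that missed the threshold after adjustment. A fold of at least 6 was reached by 0.941 and 3.15% of terminal calls in control, 2.5 and 2.05% in the 3 h lists, and 4.60 and 4.11% in the 12 h lists. In the interior the shares were 2.30 and 3.38%, 3.64 and 3.25%, and 7.07 and 7.0%. The terminal share was lower in 6 of 6 libraries (mean difference −1.55 ± 0.970 percentage points, SD, n = 6; exact permutation p = 0.0312, adjusted p = 0.0625 over 12). The neighbouring 2 Mb had like shares, with group means of 1.99, 2.50 and 4.96% beside 2.05, 2.27 and 4.35% at the terminal regions. The first 2 Mb had 4.15, 2.63 and 5.68%, which in control was above the interior mean of 2.84%.

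Local background was higher in the terminal windows than in the interior, as it was in the neighbouring 2 Mb. Median local background, in fragments at the summit, was 4.29 and 3.59 at terminal regions in control, 3.76 and 3.91 in the 3 h lists, and 2.86 and 2.83 in the 12 h lists. This was 1.17 times the interior value on average (mean log2 0.23 ± 0.03, SD, n = 6, higher in 6 of 6; exact permutation p = 0.0312, adjusted p = 0.0375). Mean summit coverage was 1.07 times the interior value (mean log2 0.10 ± 0.01, SD, n = 6, higher in 6 of 6; exact permutation p = 0.0312, adjusted p = 0.0625 over 12). The neighbouring 2 Mb had like values. Group means of background were 3.94, 3.84 and 2.85 fragments there and 3.79, 3.80 and 2.78 in the neighbouring 2 Mb, and those of mean summit coverage were 19.4, 18.8 and 16.5 against 19.4, 18.8 and 16.7. The fold is the ratio of these quantities, each raised by a pseudocount of 1, so it is not independent of them.

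**Figure D3:**
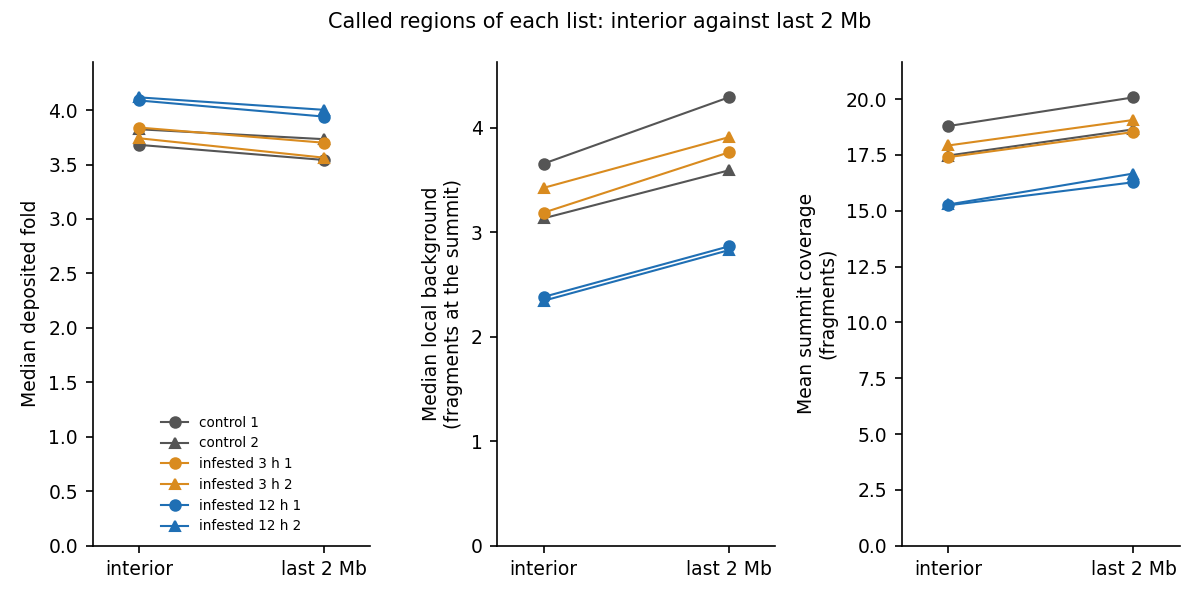
Median deposited fold, median local background in fragments and mean summit coverage in fragments (y axes, from left to right) for the called regions of the interior and of the last 2 Mb (x axes), with 1 line per library. In all 6 libraries the fold slopes down toward the terminal windows while background and coverage slope up; terminal background reaches 4.29 in control replicate 1 and is lowest, at 2.83, in 12 h replicate 2.

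Infested lists called more terminal regions than control lists on each of the 11 chromosomes, with no overlap between the 4 infested and the 2 control counts. Mean infested density was 2.15 times control in the terminal windows and 2.33 times in the interior. By chromosome the terminal ratio ran from 1.69 on chromosome 6 to 2.47 on chromosome 12. On chromosome 6 the controls called 51 and 53 terminal regions, 3 h replicates 80 and 97, and 12 h replicates 87 and 87. On chromosome 12 the counts were 28 and 30, 60 and 76, and 76 and 75.

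Whether the terminal excess differed between groups could not be tested below 0.05 with these libraries. The log2 ratio of terminal to interior density was lower by 0.12 in infested than in control libraries (difference −0.12; exact permutation p = 0.133, two-sided and the smallest that 4 against 2 allow; adjusted p = 0.417 over 5 tests). The difference from control was −0.15 at 3 h and −0.08 at 12 h, and 12 h stood 0.06 above 3 h (exact permutation p = 0.33 for each, the smallest possible; adjusted p = 0.417). Terminal regions made up 9.32 and 9.38% of the control lists, 8.66 and 8.59% of the 3 h lists, and 9.27 and 8.75% of the 12 h lists. The infested difference was −0.03 without the last 500 kb (exact permutation p = 0.533), −0.21 in a window of 1 Mb and −0.14 with lists of equal length. Without 12 h replicate 1 and replicate 2 in turn, the 12 h minus control difference was −0.13 and −0.04, and the 12 h minus 3 h difference 0.02 and 0.11. The difference in the log2 ratio of median folds was −0.01 (exact permutation p = 0.533, adjusted p = 0.533) and changed sign under several settings.

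Of the 1531 terminal regions, 264 (17.2%) were called in all 6 lists, against 15.2% of all nuclear regions and 14.9% of interior regions. Both control lists called 318 (20.8%), against 18.4% of all regions, and 948 (61.9%) were called in neither, against 63.2%. A single list called 447 (29.2%), against 30.0%. By chromosome, the share called in all lists ran from 9.76% on chromosome 12 to 24.4% on chromosome 6, with chromosome 2 next at 23.6%.

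A region was counted as gained when both lists of an infested group and neither control list called it, and as lost in the reverse case. Gains at 3 h numbered 259 terminal regions (16.9%), against 19.4% of all regions. Gains at 12 h numbered 328 (21.4%), against 21.1%. Gains at both times numbered 150 (9.80%), against 11.8%; both comparisons share the control libraries. The terminal shares of gains thus lay close to the background or below it. Gains at 12 h made up 46 of 156 members on chromosome 4, 20 of 123 on chromosome 12 and 21 of 148 on chromosome 2.

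These counts depend on single libraries, since fewer lists are then asked to agree. Gains at 3 h were 533 without 3 h replicate 1 and 419 without 3 h replicate 2. Gains at 12 h were 549 without 12 h replicate 2. With lists of equal length, which left 860 terminal regions, they were 38 at 3 h and 64 at 12 h. Shares over all regions are not given for that setting.

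Losses were few. At 3 h, 8 terminal regions (0.523%) were lost, against 0.538% of all regions, and at 12 h 21 (1.37%), against 1.13%. Losses at both times numbered 2 (0.131%), against 0.263%; they are on chromosomes 4 and 12. Chromosome 6 held 5 of the 12 h losses. Without control replicates 1 and 2 in turn the 3 h losses were 38 and 36 and the 12 h losses 53 and 55. The 3 h losses were 16 and 23 without 3 h replicates 1 and 2, and the 12 h losses 32 without 12 h replicate 1. With lists of equal length they were 67 and 68 of 860 terminal regions, more than the 38 and 64 gains of that setting.

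Between the infested groups, 64 terminal regions (4.18%) appeared in the pair of 12 h lists but not in a 3 h list, against 3.89% of all regions, and 55 (3.59%) the other way round, against 3.80%. Calls limited to the 12 h pair numbered 56 (3.66%, against 3.37%), and those limited to the 3 h pair 33 (2.16%, against 2.47%). All these shares were close to the background.

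**Figure D4:**
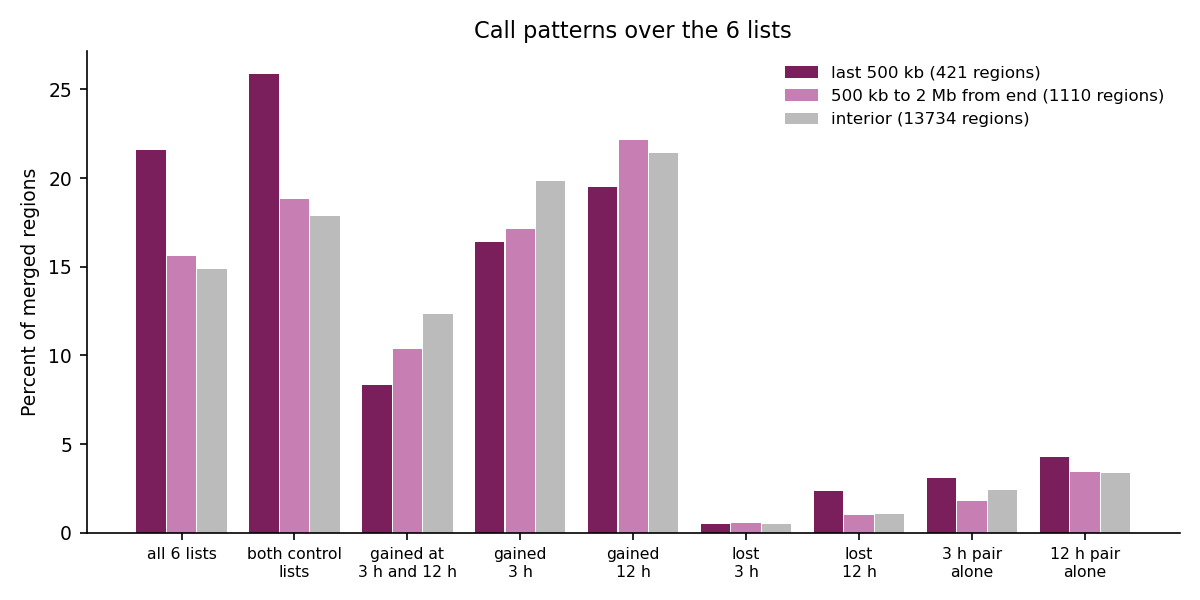
Percent of merged regions (y axis) with each pattern of calls over the 6 lists (x axis), in the last 500 kb (421 regions), from 500 kb to 2 Mb before the end (1110 regions) and in the interior (13734 regions). The last 500 kb hold the largest shares called in all lists, 21.6%, and by both control lists, 25.9%, and the smallest share gained at both times, 8.31%.

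At the 264 terminal regions called in every list, called width was 697 and 770 bp in control, 952 and 1007 bp in the 3 h lists, and 972 and 1010 bp in the 12 h lists (medians per list). All 4 infested values lay above both control values, at a mean ratio of 1.34. The 2041 such interior regions had a ratio of 1.3. Their medians were narrower than the terminal ones in each list, at 694 and 735 bp in control. They were 906 and 966 bp in the 3 h lists and 912 and 942 bp in the 12 h lists. The median fold at these terminal regions was 3.73 and 3.94 in control, 4.10 and 4.2 in the 3 h lists, and 4.49 and 4.56 in the 12 h lists, a mean infested to control ratio of 1.13 against 1.17 in the interior. In each list the terminal median fold was the lower one.

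The share of terminal calls found in both replicates was higher than the interior share in control, lower at 3 h and mixed at 12 h. Of the terminal regions of control replicate 1, 74.8% were called in replicate 2, and 66.8% in the other direction, against 69.6 and 62.8% in the interior. The corresponding terminal shares were 78.9 and 67.9% in the 3 h lists and 74.6 and 80.2% in the 12 h lists, against interior shares of 81.0 and 69.1% and of 75.6 and 76.4%. Across terminal regions called by both replicates, which are not independent of each other, the rank correlation of fold was 0.43 in control (318 regions), 0.53 at 3 h (695) and 0.57 at 12 h (762). The interior correlations were 0.51, 0.55 and 0.53. The folds share a summit coverage of few fragments, so the order of single regions is uncertain.

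The strongest shared region lay close to the end on chromosomes 5 and 6, and 1056 to 1588 kb from it on chromosomes 2, 4 and 8. The last 500 kb held 91 of the 264 regions called in all lists. The terminal region called in all lists with the highest mean fold was on chromosome 5 from 29907490 to 29908170, 681 bp wide and 29.5 kb from the end. Its folds were 10.0 and 8.45 in control, 6.80 and 10.2 in the 3 h lists, and 9.06 and 4.86 in the 12 h lists. The groups overlapped, and 12 h replicate 2 was the lowest, with a summit of 12 fragments against 45 in control replicate 1.

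On chromosome 6 the strongest shared region was also the outermost, from 31247319 to 31247932, with its midpoint 0.307 kb from the end. Its folds were 8.16 and 8.42 in control, 7.68 and 7.24 in the 3 h lists, and 7.71 and 6.18 in the 12 h lists. Both control values lay above all infested values, whereas the median folds over all shared terminal regions had the reverse order. Its local background was low, at 2.80 and 2.44 fragments in control, where terminal medians were 4.29 and 3.59.

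Elsewhere the strongest shared regions had mean folds of 5.37 to 6.4. The chromosome 12 region (27143525 to 27144873) reached 5.63 and 6.07 in control, 6.0 and 6.79 in the 3 h lists, and 6.91 and 6.98 in the 12 h lists. That of chromosome 7 (29547506 to 29548792), 149 kb from the end, reached 4.10 and 5.09 in control, 6.12 and 5.91 in the 3 h lists, and 6.86 and 7.03 in the 12 h lists. All infested values of the chromosome 7 region exceeded both control values, and in the chromosome 12 region control replicate 2 overlapped with 3 h replicate 1. How many of the shared terminal or interior regions separate the groups in this way was not counted. On chromosome 8 (26820041 to 26821119) the folds were 5.91 and 6.20, 7.65 and 5.82, and 6.09 and 6.67 in the same order, and the groups overlapped.

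The strongest shared region on chromosome 2 ran from 34879699 to 34880980, with a mean fold of 6.26 over the lists. On chromosome 3 it ran from 36124369 to 36125381 (5.73), on chromosome 9 from 22142285 to 22143361 (5.75) and on chromosome 10 from 22964232 to 22965607 (5.49). On chromosome 4 it ran from 34445073 to 34446828 (5.48) and on chromosome 1 from 43063782 to 43065140 (5.37). Control replicate 1 was the lowest list at 5 of these 6, on chromosomes 1, 2, 3, 4 and 9. That list also had the lowest median fold over all regions called in every list, at 3.73 in the terminal windows and 3.90 in the interior. At the strongest shared regions of chromosomes 4, 9 and 10 all infested folds lay above both control folds. At those of chromosomes 1, 2 and 3 the groups overlapped.

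Among regions gained at both times, the strongest was on chromosome 1 from 41854041 to 41855378, 1395 kb from the end. Its folds were 6.88 and 6.42 in the 3 h lists and 7.11 and 9.13 in the 12 h lists, with no call in control. A chromosome 7 gain (28843986 to 28844806) reached 4.85 and 5.12 in the 3 h lists and 7.75 and 5.62 in the 12 h lists. The remaining leading gains had infested folds between 4.72 and 6.94. On chromosome 6 (30667096 to 30667612) both 3 h folds, 5.76 and 6.94, exceeded both 12 h folds, 4.82 and 4.94. Local background at this region equalled the lowest of the list in every calling library. Its summits held 17 and 22 fragments at 3 h and 11 and 11 at 12 h. The times overlapped on chromosome 10 (22435375 to 22436427) and on chromosome 2 (35837064 to 35838308), the last 98.4 kb from the end.

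Among regions listed at 1 infested time alone, the 3 strongest of 12 h all exceeded the 3 strongest of 3 h in fold. Those of 12 h lay on chromosome 4 (34489946 to 34491512, folds 5.64 and 5.54), chromosome 8 (27163492 to 27164387, folds 4.72 and 5.05) and chromosome 7 (29276981 to 29277702, folds 4.77 and 4.53). Those of 3 h lay on chromosome 6 (30206626 to 30207025, folds 4.06 and 4.22), chromosome 4 (34762789 to 34763433, folds 3.88 and 4.16) and again chromosome 6 (31127467 to 31128196, folds 3.93 and 3.75). These regions were picked by fold, and median folds of all terminal calls were also higher in the 12 h lists than in the 3 h lists. The 12 h regions on chromosomes 8 and 7 had summits of 10 to 14 fragments over a local background of 1.43 to 1.97. Those of 3 h had summits of 12 to 19 fragments over 2.20 to 4.33. Their order in fold is therefore not an order in summit coverage.

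The leading lost regions had modest folds. The strongest, on chromosome 2 (35935660 to 35936128), stood at 4.95 and 4.33 in control and 3.52 in 3 h replicate 1, with no call at 12 h. Its summits held only 16, 12 and 10 fragments in these lists, and its local background was the lowest of each. A chromosome 5 region (28244336 to 28244919) had 4.19 and 4.78 in control and 3.78 and 4.30 in the 12 h lists, with no call at 3 h. A chromosome 10 region (22071455 to 22072409) had 3.99 and 4.02 in control and 5.42 and 4.27 in the 3 h lists, with no call at 12 h; both 3 h folds exceeded both control folds. The chromosome 6 (30799927 to 30800996) and chromosome 4 (35499675 to 35501467) losses, with control folds from 3.83 to 4.05, still had calls in the 3 h lists and none at 12 h.

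**Figure D5:**
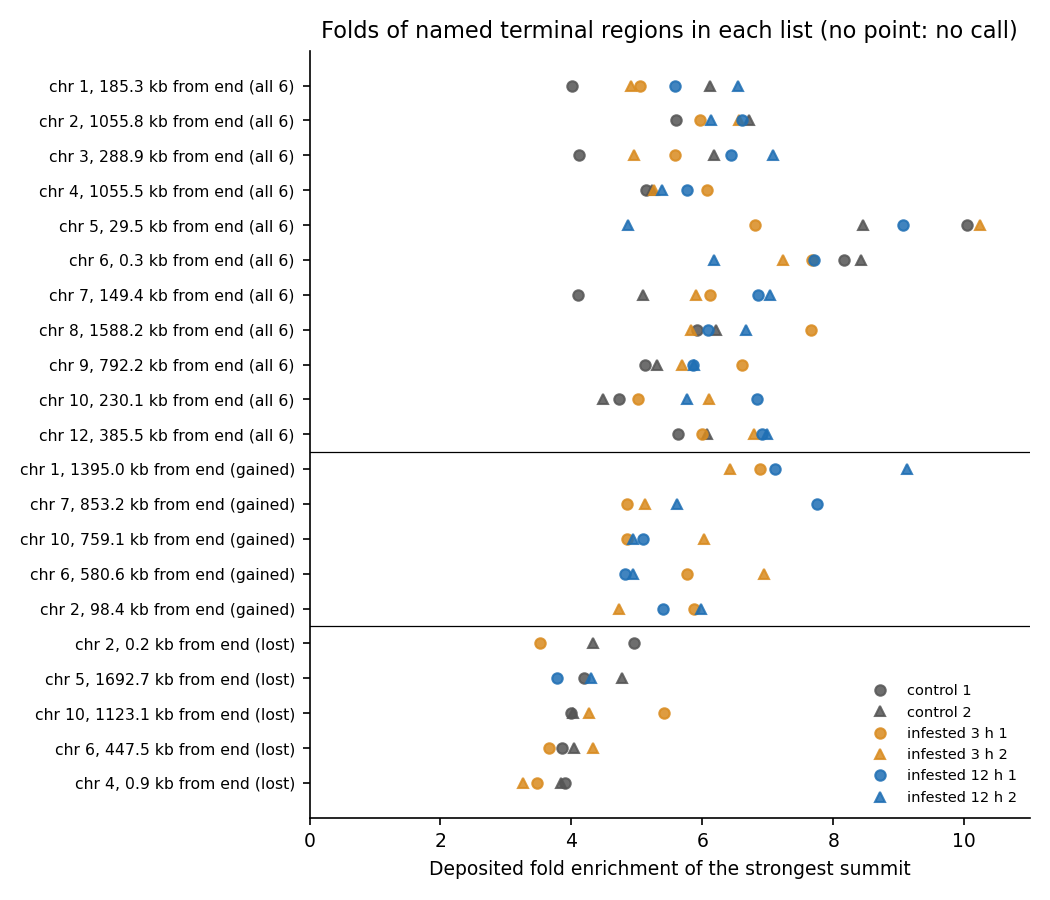
Deposited fold of the strongest summit (x axis) in each of the 6 lists for 21 named terminal regions (y axis, by chromosome and distance from the end): the strongest region called in all lists on each chromosome, the 5 strongest gained at both times and the 5 strongest lost at either time. The chromosome 5 region at 29.5 kb has the widest spread, from 4.86 to 10.2, and a missing point is a missing call.

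The outermost members were called unevenly. Of the 11 regions that mark the ends, 3 were called in all 6 lists (chromosomes 6, 7 and 9), 3 in 4 lists and 5 in 3 lists. They were 469 to 1793 bp wide. Control lists called 6 and 7 of them, those of 3 h 7 and 8, and those of 12 h 8 and 9. The outermost region of chromosome 9 (22933957 to 22934975) reached 3.66 and 4.05 in control, 4.73 and 5.59 in the 3 h lists, and 5.25 and 6.21 in the 12 h lists. Every infested value lay above both control values, as did the infested median folds over all shared terminal regions. That of chromosome 12 (27528909 to 27529711) was called in the 4 infested lists alone, with folds from 3.84 to 5.63, and that of chromosome 7 (29696702 to 29697565) in every list, with folds from 3.52 to 6.41. At the outermost regions of chromosomes 2, 7 and 12 the local background equalled the lowest of the list in every calling library, for example 2.43 fragments in control replicate 1. On chromosomes 2 and 4 the outermost regions are lost regions named above.

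Density was highest in the last 500 kb, a window chosen after the profile by distance had been seen. It held 421 members, and the lists called 141 and 154 of them in control, 267 and 298 in the 3 h lists, and 281 and 264 in the 12 h lists. Per Mb this was 26.8 ± 1.67 in control, 51.4 ± 3.99 in the 3 h group and 49.5 ± 2.19 in the 12 h group (SD, n = 2 each). From 500 kb to 2 Mb before the end the density was 18.4 ± 1.63, 40.6 ± 4.80 and 43.2 ± 2.31 (SD, n = 2 each). In infested lists mainly the last 250 kb stood out, at 56.5 regions per Mb on average. The bin from 250 to 500 kb held 44.4 there, below the 47.1 of the bin from 750 to 1000 kb. In control these 3 bins held 30.9, 22.7 and 20.4.

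The density of the last 500 kb over that of the next 1500 kb was 1.49 and 1.43 in control, 1.3 and 1.23 in the 3 h lists, and 1.14 and 1.15 in the 12 h lists. It was above 1 in 6 of 6 libraries (mean log2 0.36 ± 0.16, SD, n = 6; exact permutation p = 0.0312, adjusted p = 0.0625 over 12). By chromosome it was above 1 on 11 and 9 of the 11 in control, 10 and 11 in the 3 h lists, and only 8 and 7 in the 12 h lists. Both control values lay above all 4 infested values (log2 difference −0.28; exact permutation p = 0.133, the smallest possible; adjusted p = 0.178). The mean control ratio exceeded the mean infested ratio on 10 of the 11 chromosomes. Leaving out the outermost region of each chromosome, which the choice of end guarantees, gave 0.31 for the mean log2 ratio and −0.26 for the difference.

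That difference varied with the stringency of the lists. With lists of equal length the log2 ratios were 0.57 and 0.60 in control, 0.60 and 0.57 in the 3 h lists, and 0.39 and 0.22 in the 12 h lists. The 3 h values then overlapped the control values, the 12 h values lay below both, and the infested difference was −0.14 (exact permutation p = 0.533). With peaks of −log10 q of at least 5 the infested difference was −0.36 (exact permutation p = 0.267) and the mean log2 ratio over the 6 libraries 0.58. Without the last 500 kb, the terminal windows still exceeded the interior (mean log2 0.55 over 6 libraries). The 12 h minus control difference then became 0.02 where it had been −0.08.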

How the data were processed

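H3K9ac CUT&Tag was done on leaves in 6 libraries, 2 per group. The tools named per the submitters' processing notes are MACS2 2.1.0, Bowtie 1.1.2, Trimmomatic 0.33 and bcl2fastq 2.17, on build IRGSP-1.0. Their settings, duplicate handling and input control were not stated in what was used here. The authors deposited 1 peak list per library, not pooled. The deposited lists give each peak's fold enrichment (a ratio to local background), −log10 p-value and −log10 q-value, a score (10 times the −log10 q; not used) and a summit position. 

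Peaks sharing both boundaries in a list (several summits of 1 interval) became 1 region, with the strongest fold kept. Summit coverage, in whole fragments, and local background were recovered from fold and −log10 p for 100% of peaks (tolerance 0.001 on −log10 p). A single value per library entered each exact permutation test (two-sided, Benjamini-Hochberg adjusted), and single regions were not tested. The scripts, run with Python 3.11.15, NumPy 2.4.6, pandas 2.3.3 and SciPy 1.17.1, were tested on simulated data. Named regions were, per chromosome, the outermost and the one called in all lists with the highest mean fold, and, ranked by the lower fold of the calling group, the first 5 gained at both times, 5 lost and 3 of each infested pair alone. Members, classes and windows were chosen with earlier results of these data known. Genes and sequences were not used here, since no genome of this build was given, so the planned product lists were not run. Intervals for counting error are not given, because the replicates carry the error. Alternatives tried were a −log10 q of at least 5, lists of equal length (5079 peaks), calls covering 50% of a region, windows of 1 and 3 Mb, another interior, a median over chromosomes, each library left out and a replicate block.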

Additional observations from a re-analysis of the deposited data

How the results depend on the processing

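Terminal density, fold and background against the interior, and density against the neighbouring and first 2 Mb, kept their direction in every setting run and their side of the threshold whenever all 6 libraries entered. With 5 libraries the smallest p was 0.0625, and their mean log2 ratios were 0.63 to 0.66 (interior density), 0.21 to 0.24 (neighbouring 2 Mb), 0.33 to 0.36 (first 2 Mb), −0.0547 to −0.0475 (fold), 0.23 to 0.24 (background) and 0.32 to 0.40 (last 500 kb). The log2 ratio of width passed the threshold at −log10 q of at least 5 (0.0659), with equal lists (0.0628), at 50% cover (0.0224) and in 1 Mb (0.0749), and reversed to −0.0079 without the last 500 kb. Without those 500 kb, chosen after seeing the data, the 12 h minus control density difference reversed to 0.0208, the infested minus control fold difference to 0.0040, 12 h losses were 11 and shared members 173. The fold difference also reversed at −log10 q of at least 5 (0.0206), at 50% cover (0.0011) and without control replicate 2 (range −0.0197 to 0.00092 over single libraries). At −log10 q of at least 5 there were 107 and 144 gains (3 h, 12 h) and 73 shared among 715 members. Equal lists gave 38 and 64 gains, 67 and 68 losses and 137 shared among 860 members. At 50% cover 122 were shared. In 1 Mb there were 137 and 162 gains and 153 shared among 802 members, and in 3 Mb 33 losses at 12 h among 2211 members. Shares over all regions are not given for these settings. Leaving out single libraries gave 313 to 533 and 385 to 549 gains and 16 to 38 and 25 to 55 losses. Why these counts moved was not tested, beyond fewer lists, peaks or bases entering. With replicate number as a replicate block the infested minus control density difference stayed −0.12 (exact permutation p = 0.222, the smallest possible), and no other difference changed its call. Same-numbered libraries deviated together with correlations of −0.10, 0.01 and −0.03, and the numbers were not taken as pairs. These correlations cover only the 264 members called in all lists, so they cannot address a shared batch in list length or density. Coverage of 13 to 17 fragments per summit limits single folds.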

Other observations

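The opposite ends of the same 11 chromosomes showed a like gradient. In the first 500 kb the lists called 129 and 139 regions in control, 213 and 244 in the 3 h lists, and 211 and 222 in the 12 h lists. Per Mb this was 24.4 ± 1.29 in control, 41.5 ± 3.99 in the 3 h group and 39.4 ± 1.41 in the 12 h group (SD, n = 2 each), against 13.9 ± 1.54, 31.8 ± 3.99 and 31.7 ± 0.0857 in the next 1500 kb. The mean log2 ratio of these densities was 0.50 ± 0.24 (SD, n = 6), above 0 in 6 of 6 libraries (exact permutation p = 0.0312, adjusted p = 0.0625 over 12 tests chosen after the data were seen). It was lower by 0.46 in infested libraries (difference −0.46; exact permutation p = 0.133, the smallest possible; adjusted p = 0.178). This difference was not recomputed with lists of equal length, a setting that moved the one at the high-coordinate ends from −0.28 to −0.14. Infested density was 1.66 times control in the first 500 kb and 2.28 times in the next 1500 kb. At the high-coordinate ends these ratios were 1.88 and 2.28.

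The last 2 Mb of chromosome 11, outside the terminal set, were sparser than any of its 11 windows. They held 56 merged regions, against 123 to 158, and the lists called 15 and 17 in control, 37 and 36 in the 3 h lists, and 34 and 35 in the 12 h lists. In all lists together 6 regions (10.7%) were shared.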
